A study of Mus musculus with 12 samples.

Results

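The miRNA content of exosomes was compared between iron-loaded mouse granulosa cells that had received an iron chelator and iron-loaded cells that had received an antioxidant. The DFO and VE libraries were taken by their treatment labels, and they are 6 of the 12 small RNA libraries of the series, 3 in each group. Cells of both groups were cultured with 100 μM ferric citrate. The DFO group also received 100 μM deferoxamine mesylate, and the VE group also received 200 μM VITE (vitamin E). The other 6 libraries were from untreated cells (CON, 3 libraries) and from cells given 100 μM ferric citrate alone (FAC, 3 libraries). Per the study's methods, the cells came from the ovaries of gonadotropin-primed female Kunming mice, were kept for 24 h in medium without exosomes and were then cultured for 48 h, after which exosomes were pelleted from the medium by ultracentrifugation. No sorting of the granulosa cells is described, and the age of the mice is not given in the sources used here. The labels do not say whether the 3 libraries of a group came from separate cultures or animals, so p-values measure only the spread between these libraries, which may be technical. They name no batch.

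miRNAs are short RNAs cut from hairpin precursors, and each hairpin can give a 5p and a 3p arm. The arm that is kept in the silencing complex is called the guide, the other the passenger. A miRNA finds its messenger RNA targets mainly through its seed, bases 2 to 8, so miRNAs with the same seed form a family that can act on the same sites. Exosomes are small membrane vesicles that cells release, and they carry miRNAs between cells, in the follicle between granulosa cells and the oocyte. Deferoxamine binds iron and takes it out of reach of the cell, while vitamin E leaves the iron in place and stops the chain reaction of lipid peroxidation. Both agents are used to block ferroptosis, a cell death driven by iron and lipid peroxides.

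The mature sequences of selected miRNAs past the threshold are shown first, since the differences followed families in part. They were taken from RefSeq (GRCm38.p6), run 5′ to 3′, and have the seed in capitals. The first 4 were past the threshold, higher in DFO, and have the let-7 seed.
let-7c-5p: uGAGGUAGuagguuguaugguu
let-7b-5p: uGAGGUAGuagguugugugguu
let-7a-5p: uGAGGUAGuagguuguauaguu
let-7e-5p: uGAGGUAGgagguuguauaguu
The next 3 were higher in DFO and have other seeds, although miR-672-5p begins much as let-7 does.
miR-125a-5p: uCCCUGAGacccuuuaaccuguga
miR-125b-1-3p: aCGGGUUAggcucuugggagcu
miR-672-5p: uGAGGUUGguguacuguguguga
The next 5 were lower in DFO.
miR-148a-3p: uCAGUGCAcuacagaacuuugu
miR-99a-5p: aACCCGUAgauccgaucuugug
miR-451a: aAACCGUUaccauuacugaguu
miR-25-3p: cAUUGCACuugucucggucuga
miR-181a-5p: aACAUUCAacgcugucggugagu
The last 4 had an adjusted p under 0.05, or counts in all libraries of DFO, and stood at 0 or near 0 counts in VE.
miR-25-5p: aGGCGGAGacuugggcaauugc
miR-1934-3p: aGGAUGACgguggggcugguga
miR-3077-3p: cUGACUCCcugcuucuccgcag
miR-6988-3p: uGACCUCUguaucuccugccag
Counted from 1 at the 5′ end, let-7c-5p differs from let-7b-5p by A17G, from let-7a-5p by G19A and from let-7e-5p by U9G and G19A. Members that differ by a single base can share reads in the counting, so counts of single let-7 members are uncertain. miR-486a-5p and miR-486b-5p are joined in 1 entry of the files. RefSeq sequences matched 549 of the 637 entries. miR-486a-5p, miR-669c-5p, miR-375-3p, miR-143-3p, miR-122-5p and miR-151-3p are given by name.

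The authors deposited the number of reads per miRNA entry, from reads 15 to 41 bp long, and the same values scaled to the library total (RPM). The miRNA counts were 1373519 to 4877426 per DFO library and 2227419 to 3530978 per VE library. They made up 12.6% ± 7.16 (SD, n = 3) of the library total in DFO and 11.97% ± 2.69 (SD, n = 3) in VE, a difference smaller than the spread (exact permutation test, two-sided, p = 0.9, where 3 against 3 cannot go below 0.1). No 2 of the 6 libraries agreed within sampling noise, since the chi-square statistic per degree of freedom was at least 318.9 for each of the 15 pairs. At least 1 count was found for 313.7 ± 29.2 entries in DFO and 303 ± 13 in VE (SD, n = 3, exact permutation p = 0.8). The 10 most abundant entries held 80.1% ± 2.27 of the miRNA counts in DFO and 82.6% ± 0.0947 in VE (SD, n = 3). The 3 DFO libraries lay below the 3 VE libraries in this share (exact permutation p = 0.1, the smallest possible). Between libraries, the mean Euclidean distance in log2 CPM was 62.0 over the 9 pairs of a DFO and a VE library, 61.4 within DFO and 55.0 within VE. By these means, a DFO library was about as far from another DFO library as from a VE library, but the single libraries differed. DFO replicate 3 lay at 60.9, 58.5 and 57.7 from VE replicates 1 to 3. It was farther from DFO replicates 1 (65.4) and 2 (61.96). DFO replicates 1 and 2 lay at 56.9 from each other and at 62.4 to 64.5 from the VE libraries. Values below are normalized CPM, miRNA counts scaled to a common total with edgeR's TMM factors, so each is relative to the other miRNAs of its library, and less RNA from each cell cannot be told apart from fewer releasing cells of a type. A level of 3 counts, taken here as the floor, was 0.538 to 2.25 CPM in these libraries. Entries with 1 to 2 counts were still recorded, and this floor covers counting error only.

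Of the granulosa and ovarian soma markers, 7 were in the table and 0 were past the threshold. Their summed level was 1010 to 1695 CPM in DFO and 1234 to 1737 CPM in VE. It was led by miR-21a-5p, with a mean of 1124 CPM over the 6 libraries. miR-202-5p, a miRNA of the gonads, and miR-212-3p were at 0 in all 6 libraries. The other arm of miR-202, miR-202-3p, was detected, with a mean of 15.0 CPM over the 6 libraries. In the DFO libraries, let-7c-5p was the most abundant entry in all 3, with 15.3% to 32.5% of the miRNA counts. In the VE libraries, the most abundant entry was the joined miR-486 entry in 1 library and miR-122-5p in the other two.

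**Figure D1:**
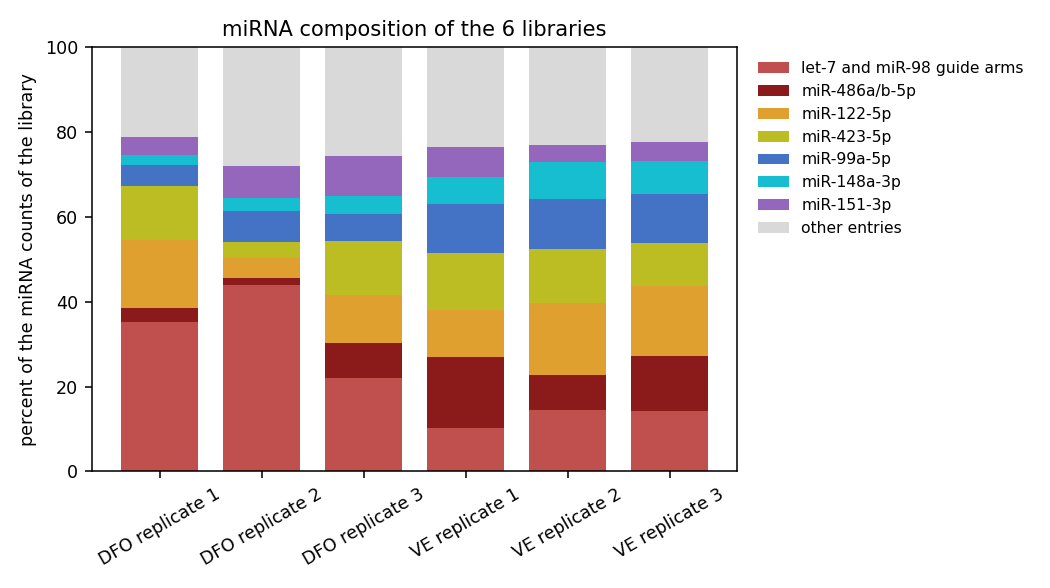
Bars give the percent of the miRNA counts of each of the 6 libraries that fell on the let-7 and miR-98 guide arms, on 6 other abundant entries and on all other entries. The let-7 share was 22.1% to 43.9% in the DFO libraries and 10.3% to 14.4% in the VE libraries, while miR-99a-5p and miR-148a-3p held larger shares in VE.

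Under the threshold of the study, a fold of at least 1.5 with an unadjusted p under 0.05, 65 of 547 tested entries differed between DFO and VE in edgeR's quasi-likelihood test. This is 11.9% of the tested entries. DFO was higher for 36 (6.58%) and lower for 29 (5.3%). With p-values adjusted by Benjamini-Hochberg over all 547, 8 had an adjusted p under 0.05 (1.46%), 6 of them higher in DFO. The numbers rested on single libraries in part. Without DFO replicate 2, 41 entries were past the threshold, and without VE replicate 1, 43 were. At an adjusted p under 0.05 in edgeR, 1 entry was left without DFO replicate 1, VE replicate 1 or VE replicate 3, 2 without VE replicate 2 and 3 without DFO replicate 2. The 1 entry was miR-25-5p. Of the 65 entries, 15 were past the threshold in each of the 6 fits that leave out a library. The 3 DFO libraries did not overlap with the 3 VE libraries for 31 of the 65, and for 75 of all tested entries (13.7%).

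The 65 entries were of 2 kinds. For 40 of them, 1 of the groups had at most 3 counts in every library. The higher group was not always present in all its libraries, as for miR-10a-3p with 0, 0 and 112 counts in VE replicates 1 to 3. The share of such entries among all tested entries was not counted, so the 40 are given as a description. The other 25 had counts in both groups. Among the counts between 10 and 500, the highest peak lay at 87.4 to 139.9 counts in a library, called the peak of rare counts here. Counts under 10 were not searched. Entries at 1 to 2 counts numbered 71, 37 and 42 in DFO replicates 1 to 3 and 49, 34 and 44 in VE replicates 1 to 3. Within 1.5 times of the peak there were 67, 74 and 55 in DFO and 38, 51 and 61 in VE. In 33 of the 40 entries, no library held more than 2 times the count of its own peak, and in 36 none held more than 4 times that count. These multiples were taken only for entries past the threshold, so no share among other rare entries stands beside them. The window was chosen with the values in view. The entries were also split, likewise afterwards, at a mean of 100 CPM over the 6 libraries. Of the 124 entries at or above this level, 21 were past the threshold (16.9%), 10 higher and 11 lower in DFO, and the groups did not overlap for 19 of the 21. The scaling of the libraries moved all values together. The median log2 fold change of the 456 tested entries with counts in DFO or VE was 0.18 with TMM factors and 0.42 with RLE factors, a shift of 0.23. With RLE factors, 74 entries were past the threshold, 50 of them higher in DFO. Taken relative to this median, all 21 abundant entries kept their direction under the 4 scalings tried.

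**Figure D2:**
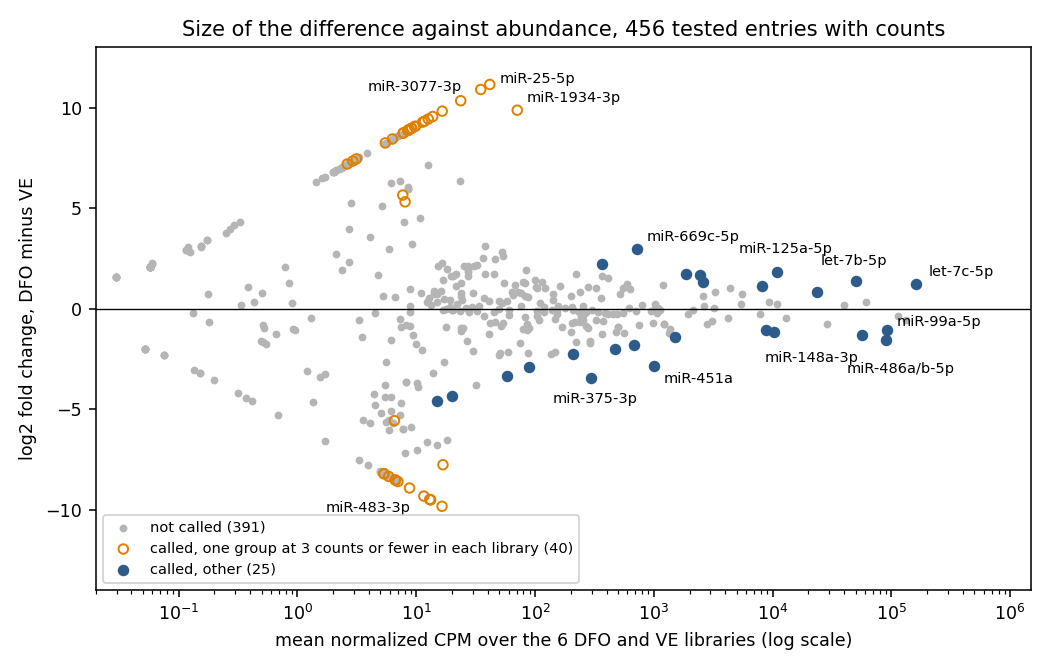
Each point is a tested entry with counts in DFO or VE (456 entries). The x axis gives its mean normalized CPM over the 6 libraries on a log scale, the y axis its log2 fold change, DFO minus VE. Log2 fold changes beyond 5 in either direction belong to entries under 100 CPM, and the abundant entries past the threshold lie between -3.45 and 2.97.

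The let-7 and miR-98 guide arms held 33.7% ± 10.97 of the miRNA counts in DFO and 12.97% ± 2.35 in VE (SD, n = 3). let-7 miRNAs are known as brakes on growth and on stem cell programmes, and their levels rise as cells differentiate. let-7c-5p was at 241145, 284023 and 157887 CPM in DFO replicates 1 to 3 and at 68720, 110257 and 113555 CPM in VE replicates 1 to 3. All DFO libraries lay above all VE libraries. Its log2 fold change was 1.22 (standard error 0.34, edgeR adjusted p = 0.0320). let-7b-5p was at 100597, 65866 and 52755 CPM in DFO and at 28137, 28063 and 27039 CPM in VE. The VE libraries lay within a narrow band, and each DFO library was above them. The log2 fold change of let-7b-5p was 1.40 (standard error 0.40, edgeR adjusted p = 0.0434). Both were past the threshold in each fit that left out a library, and their adjusted p in edgeR rose to at most 0.345 for let-7c-5p (without VE replicate 1) and 0.420 for let-7b-5p (without DFO replicate 1).

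All 9 let-7 and miR-98 guide arms tested had a positive log2 fold change, with a median of 1.07, against 0 over all tested entries and 0.18 over those with counts. A positive value was also found for 246 of the 456 entries with counts. Of the 9 guide arms, 4 were past the threshold, against 11.9% of all tested entries, and 0 were so in the other direction. Since members can share reads, the 9 are not separate observations. Relative to the median of the entries with counts, the 9 differences lay between 0.39 and 1.31 under the 4 scalings. let-7a-5p (1.11) and let-7e-5p (1.32) were past the threshold, but their groups overlapped. let-7a-5p was at 11843, 14776 and 6517 CPM in DFO and at 1524, 7402 and 6425 CPM in VE. DFO replicate 3 lay among the VE libraries for let-7a-5p, and it was also the lowest of the DFO libraries for let-7c-5p, let-7b-5p and let-7e-5p. let-7a-5p missed the threshold without DFO replicate 1, DFO replicate 2 or VE replicate 1, and let-7e-5p passed it only without DFO replicate 3. Summed over the 10 entries with the let-7 seed, which takes away the question of which member a read belongs to, the level, with TMM factors of its own from the summed table, was 386774 ± 150398 CPM in DFO and 148335 ± 4587 CPM in VE (SD, n = 3). The summed log2 fold change was 1.38 (standard error 0.43, edgeR adjusted p = 0.101 over 473 seed groups and single entries). Of these 473, 54 were past the threshold (11.4%).

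The 3p arms of the same hairpins, listed as passengers, had few calls. For let-7d the 3p arm was the more abundant one, with a mean of 9320 CPM over the 6 libraries against 278.2 CPM for let-7d-5p. Of 8 let-7 and miR-98 3p arms tested, 6 had counts, 0 were higher past the threshold and 1 was lower. This was let-7c-1-3p, the 3p arm of the hairpin of Mirlet7c-1, with 1.72, 28.5 and 0.751 CPM in DFO and 106.6, 130.9 and 81.1 CPM in VE. The groups did not overlap, and the direction was opposite to that of let-7c-5p. Its log2 fold change was -3.34 (standard error 1.502, edgeR adjusted p = 0.391), and it missed the threshold without DFO replicate 1, DFO replicate 3 or VE replicate 2. let-7e-3p (-6.54) and let-7f-1-3p (-6.77) had negative values that did not pass it. let-7d-3p, the most abundant of these arms, had a value of 0.33. The counts of let-7 3p arms other than let-7d-3p were low, with means of at most 106.2 CPM in either group. Of 93 pairs of a 5p and a 3p arm that both had counts, 24 (25.8%) had an arm past the threshold, and in 6 both arms were. The arms had opposite signs in 13 of the 24, and in 42 of the 93.

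**Figure D3:**
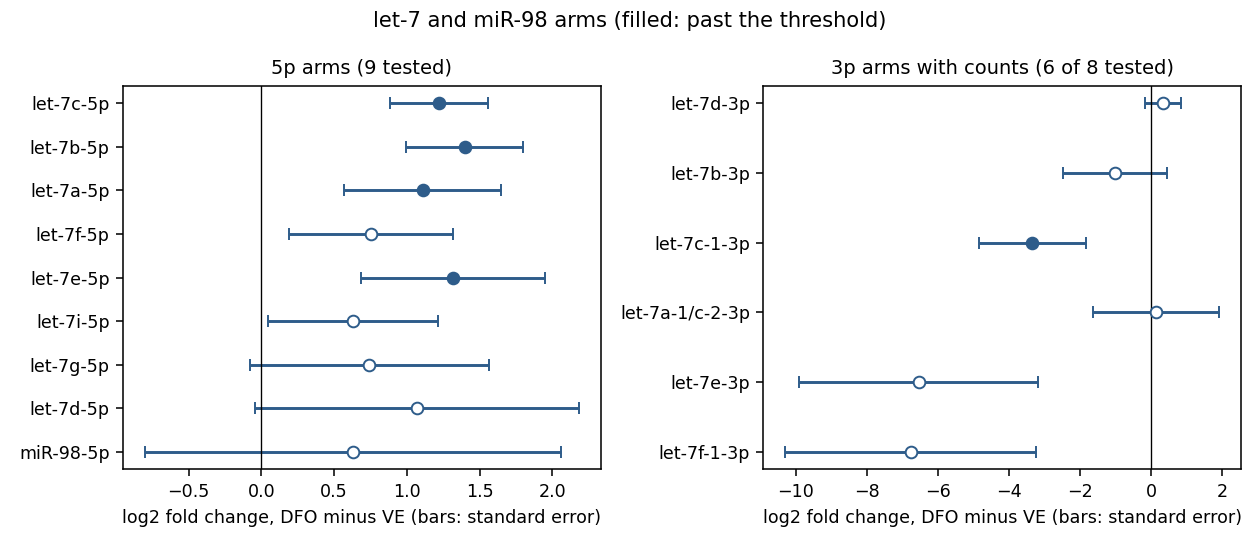
Points give the log2 fold change, DFO minus VE, and bars its standard error, for the let-7 and miR-98 5p arms and for the 3p arms with counts, ordered by abundance. The 9 guide arms lie between 0.63 and 1.40, while the 3p arms lie between -6.77 and 0.33.

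Several let-7 hairpins lie close to those of other miRNAs. In GRCm38.p6, RefSeq places Mir99a at chr16:77598936-77599000 and Mirlet7c-1 at chr16:77599657-77599750, both on the plus strand and outside the protein-coding genes of the annotation. Mirlet7c-2 (chr15:85706603-85706697) and Mirlet7b (chr15:85707319-85707403) lie within the long noncoding RNA Lncppara. miR-99a-5p, which represses the growth kinase mTOR in several cell types, was lower in DFO. It was at 52295, 63750 and 63851 CPM in DFO and at 116354, 125267 and 128318 CPM in VE. The groups were tight and well apart. Its log2 fold change was -1.04 (standard error 0.36, edgeR adjusted p = 0.154), and it stayed past the threshold without any 1 library. It missed the threshold in 5 of 19 alternatives, with values down to -0.72. Beside miR-99a-5p, let-7c-1-3p had the same sign, while let-7c-5p, which is also made from Mirlet7c-2, had the opposite one. miR-99b-5p, with the seed of miR-99a-5p, had a log2 fold change of 0.17.

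Mirlet7e (chr17:17830352-17830444) and Mir125a (chr17:17830812-17830879) lie in the same orientation within Spaca6, a protein-coding gene. miR-125a-5p, a relative of the lin-4 miRNA of worms, was at 20231, 24262 and 6662 CPM in DFO and at 5040, 4851 and 4713 CPM in VE. Each DFO library was above the VE libraries, DFO replicate 3 by little. Like its neighbour let-7e-5p, it was higher in DFO past the threshold. miR-99b-5p, set beside miR-125a-5p in a ratio below, had a mean of 39878 CPM over the 6 libraries and did not pass it (0.17). The log2 fold change of miR-125a-5p was 1.81 (standard error 0.53, edgeR adjusted p = 0.0438, and up to 0.423 when DFO replicate 2 was left out). Its own 3p arm, miR-125a-3p, had a value of 0.20, and miR-125b-5p, which has the same seed, 0.26. In contrast, the 3p arm miR-125b-1-3p was past the threshold. It was at 3512, 3291 and 4429 CPM in DFO and at 1398, 948.4 and 1178 CPM in VE, with no overlap (log2 fold change 1.67, standard error 0.64, edgeR adjusted p = 0.278). In the group of miR-10, miR-99, miR-100 and miR-125, 13 were tested, 2 were higher and 3 lower past the threshold, and the median was -0.28.

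Ratios between miRNAs of the same library do not depend on the scaling. They were chosen after the values had been seen and are given as a description. The count of let-7c-5p divided by that of miR-99a-5p was 4.61, 4.46 and 2.47 in DFO and 0.591, 0.880 and 0.885 in VE, a 4.90-fold difference of the means. It was 0.428, 0.558 and 1.07 in FAC and 2.13, 2.46 and 3.69 in CON. In this ratio, VE lay among the FAC libraries and DFO among or above the CON libraries. The ratio of miR-125a-5p to miR-99b-5p was 0.599, 0.492 and 0.153 in DFO and 0.109, 0.146 and 0.142 in VE. It was 0.0631, 0.108 and 0.104 in FAC and 0.200, 0.160 and 0.172 in CON, so that the VE libraries lay above all FAC and below all CON libraries. DFO replicate 3 stood close to VE here and apart from the other DFO libraries. The same held for the ratio of the 5p to the 3p arm of miR-125a, at 28.3, 25.9 and 7.31 in DFO and 7.16, 5.82 and 6.74 in VE. let-7b-5p over miR-148a-3p was 4.21, 2.37 and 1.15 in DFO and 0.442, 0.300 and 0.318 in VE. let-7c-5p over miR-486 was 6.57, 18.5 and 1.85 in DFO and 0.407, 1.24 and 0.790 in VE. In this ratio FAC was at 10.7, 6.89 and 1.14 and CON at 3.70, 3.37 and 7.76, so VE did not lie among the FAC libraries as a group.

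**Figure D4:**
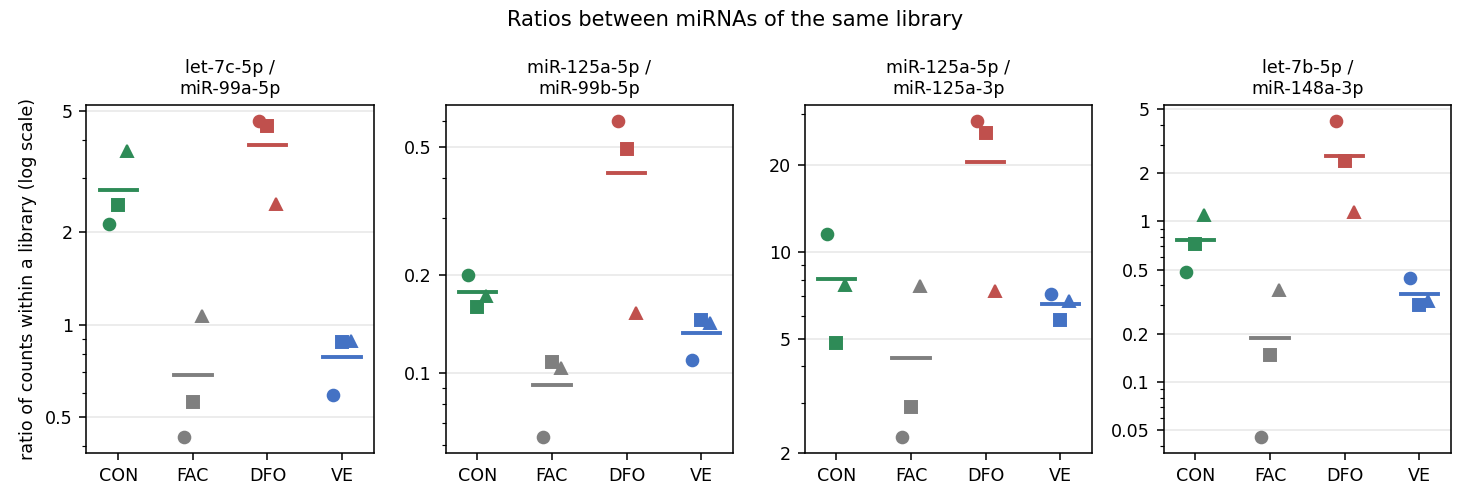
Each point is the ratio of the counts of 2 miRNAs in 1 library, on a log scale, for the 12 libraries, and bars give group means (circle, square and triangle are replicates 1, 2 and 3). In the ratio of let-7c-5p to miR-99a-5p the DFO libraries lie between 2.47 and 4.61, above all VE libraries, while in both ratios with miR-125a-5p DFO replicate 3 lies close to the VE libraries.

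Other abundant miRNAs were higher in DFO. miR-669c-5p, from a rodent cluster of repeat-derived miRNAs within Sfmbt2, was at 1317, 1240 and 1286 CPM in DFO and at 186.5, 221.97 and 80.5 CPM in VE. The DFO libraries lay close together and far above VE. Its log2 fold change was 2.97 (standard error 0.92, edgeR adjusted p = 0.0631), and it was past the threshold under all 19 alternatives run. It was the only one of 9 tested members of the miR-297, miR-466, miR-467 and miR-669 cluster past the threshold, and the median of the 9 was 2.12. miR-672-5p, encoded at chrX:104116175-104116274 within Nexmif, was named after its values had been seen. It was at 2348, 2667 and 3614 CPM in DFO and at 910.6, 816.5 and 861.8 CPM in VE, with a log2 fold change of 1.74 (standard error 0.68, edgeR adjusted p = 0.323). The groups did not overlap, and it was past the threshold in each fit that left out a library. The muscle miRNA miR-206-3p (2.21), likewise named afterwards, and miR-143-3p (0.86) were also past it. miR-143-3p is a miRNA of smooth muscle and fibroblasts. The 5 stromal markers, of which it was the 1 past the threshold, summed to 23946 to 44045 CPM in DFO and 14035 to 20841 CPM in VE. miR-143-3p missed the threshold without DFO replicate 3, VE replicate 1 or VE replicate 2. The part of stromal cells in these values was not tested.

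The joined miR-486a-5p and miR-486b-5p entry was also lower in DFO. miR-486 is made in muscle and, in large amounts, in red cells. It was at 36701, 15351 and 85175 CPM in DFO and at 168935, 88569 and 143712 CPM in VE. The groups did not overlap, although DFO replicate 3 lay just under VE replicate 2. The log2 fold change was -1.55 (standard error 0.39, edgeR adjusted p = 0.0109, and up to 0.383 without DFO replicate 2). Without DFO replicate 3 it was -2.36, and without DFO replicate 2 it was -1.13. miR-451a, the erythroid miRNA that is cut by Argonaute instead of Dicer, was at 8.61, 75.7 and 646.2 CPM in DFO and at 661.7, 778.6 and 3798 CPM in VE. DFO replicate 3 lay just under VE replicate 1, and VE replicate 3 stood far above the other VE libraries. Its log2 fold change was -2.84 (standard error 0.85, edgeR adjusted p = 0.0538), and it missed the threshold without VE replicate 3, with a value of -1.57. Without DFO replicate 3 it was -5.37. The 2 erythroid markers tested were thus both lower in DFO, and the summed erythroid level was 15426 to 85821 CPM in DFO and 89347 to 169597 CPM in VE. Their part in the other differences was not tested.

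The liver and serum markers, led by miR-122-5p, did not pass the threshold. miR-122-5p was at 168241, 41724 and 114792 CPM in DFO and at 110943, 183380 and 183145 CPM in VE, and its groups overlapped (log2 fold change -0.56, edgeR adjusted p = 0.445). Leaving out DFO replicate 1 brought it past the threshold, at -1.02. miR-423-5p (-0.38) and miR-151-3p (0.33), also among the 8 most abundant entries, overlapped as well. DFO replicate 2 held the lowest level of miR-486, miR-122-5p and miR-423-5p and the highest of let-7c-5p among the 6 libraries. Without it, miR-423-5p had a value of 0.040, and let-7c-5p kept a log2 fold change past the threshold.

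miR-148a-3p, known for its role in lipid metabolism through the LDL receptor, was lower in DFO. It was at 23920, 27825 and 45912 CPM in DFO and at 63630, 93547 and 85154 CPM in VE. All DFO libraries lay below all VE libraries. The log2 fold change was -1.31 (standard error 0.37, edgeR adjusted p = 0.0363, and up to 0.357 without DFO replicate 1). miR-152-3p (1.05) and miR-148b-3p (-0.05), with the same seed, were rare and did not pass the threshold. On the scale of the summed table, the sum of the 3 was 36495 ± 6170 CPM in DFO and 87447 ± 7685 CPM in VE (SD, n = 3). Its own 5p arm, miR-148a-5p, had the opposite sign and rested on DFO replicate 3, with 98.8% of the DFO level.

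Other miRNAs lower in DFO were of several families. miR-375-3p, an islet and epithelial miRNA that has also been studied in granulosa cells, was at 5.86, 66.9 and 76.6 CPM in DFO and at 692.9, 407.1 and 533.6 CPM in VE. The groups lay far apart, with a log2 fold change of -3.45 (standard error 1.16, edgeR adjusted p = 0.133). It was past the threshold under all 19 alternatives run. miR-181a-5p (-2.01), a miRNA of lymphocytes and endothelium, was 1 of 7 tested members of the miR-181 family past the threshold. miR-10a-5p (-1.06), encoded in a Hox cluster, was at 5665, 5505 and 5851 CPM in DFO and at 10286, 14229 and 10882 CPM in VE. These groups did not overlap, but the call was lost in 13 of 19 alternatives. miR-22-3p (-1.80) and miR-23b-3p (-2.90) were past the threshold with no overlap, as were, named after their values had been seen, miR-128-3p (-1.41) and miR-292a-5p (-2.23), the latter from a cluster of early embryo miRNAs.

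The arms of miR-25 had opposite differences. Mir25 (chr5:138165321-138165404), Mir93 and Mir106b are encoded together on the minus strand within Mcm7, a gene of the replication helicase. miR-25-3p was at 3560, 5370 and 9882 CPM in DFO and at 16345, 12485 and 13685 CPM in VE. The groups did not overlap (log2 fold change -1.18, standard error 0.50, edgeR adjusted p = 0.391), and the call was lost without DFO replicate 1, DFO replicate 2 or VE replicate 1. miR-106b-3p (0.05) and miR-93-5p (2.54) did not pass the threshold. The rare 5p arm of miR-25 went the other way from its 3p arm. miR-25-5p was at 0.689, 74.95 and 174.1 CPM in DFO and had 0 counts in all VE libraries, which is at least 73.6-fold higher in DFO with the floor of 3 counts per library. It had the smallest adjusted p of all entries (edgeR, 0.000319), and this stayed at most 0.0292 with any 1 library left out. Over the other alternatives (edgeR, DESeq2 or limma), its adjusted p went up to 0.559. Its log2 fold change, 11.2 in the main fit, went down to 2.55 over these. It stayed past the threshold in all 18 alternatives. miR-25-5p had 2, 418 and 232 counts in the DFO libraries, where the peak of rare counts lay at 139.9, 91.1 and 94.9. It was at 0.819, 302.8 and 539.3 CPM in CON and at 7.85, 13.4 and 49.8 CPM in FAC, so the spread within a treatment was wide.

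Among the rare entries, 3 more that were present in DFO libraries and at or near 0 counts in VE are described. miR-1934-3p was at 164.3, 122.6 and 138.1 CPM in DFO and had 0, 0 and 1 counts in VE. The DFO libraries held 1345 counts in all, and the ratio to VE was 1116 (95% counting interval 199.9 to 44101, edgeR adjusted p = 0.0109). This interval pools the reads of a group. Like the fold limits given for other rare entries, it holds counting error only and not the spread between libraries. The 5p arm of miR-1934, at 51.0, 29.05 and 50.3 CPM in DFO and at 33.4, 0 and 0.314 CPM in VE, did not pass the threshold. miR-3077-3p was at 140.2, 69.2 and 0 CPM in DFO and at 0 in VE, at least 61.8-fold higher (edgeR adjusted p = 0.0158). It has the seed of miR-7661-3p, which was at 49.955, 17.9 and 0 CPM in DFO and also at 0 in VE, although the 2 sequences differ at 8 positions and their genes lie on different chromosomes, within Sap18 and Itpr1. miR-6988-3p, encoded within Syvn1, was at 52.0, 25.6 and 64.5 CPM in DFO and at 0 in VE. It was the 1 entry with at least 10 counts in every DFO library and 0 in VE, at least 41.9-fold higher (edgeR adjusted p = 0.0623). The reverse held for 1 entry, miR-483-3p, which lies within the imprinted Igf2 gene. miR-483-3p was at 50.6, 11.3 and 37.1 CPM in VE and at 0 in DFO, at least 25.9-fold lower in DFO (edgeR adjusted p = 0.391). Against the peak of rare counts, miR-1934-3p was at 3.41, 7.51 and 1.94 times in DFO replicates 1 to 3. miR-3077-3p was at 2.91, 4.24 and 0 times and miR-6988-3p at 1.08, 1.57 and 0.906 times. In VE replicates 1 to 3, miR-483-3p was at 1.14, 0.355 and 1.06 times.

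For 27 of the 65 entries, a single library held more than 90% of the level of the higher group, as it did for 189 of the 456 entries with counts. miR-210-3p, the main miRNA of the hypoxia response, was of this kind. It was at 0.345, 98.98 and 0 CPM in DFO and at 0 in VE, so its difference rested on DFO replicate 2. miR-155-5p, a miRNA of activated leukocytes, was at 41.0, 12.01 and 1.501 CPM in DFO and at 0 in VE. It was the 1 leukocyte marker past the threshold, while miR-150-5p had a value of 1.05 and miR-142a-5p one of -7.02, and the summed leukocyte level overlapped (29.2 to 368.5 CPM in DFO and 1.81 to 227.5 CPM in VE). In the list of 19 tested miRNAs linked to iron, hypoxia and red cells, 1 was higher and 3 were lower in DFO past the threshold (miR-210-3p against miR-22-3p, miR-451a and miR-486), with a median of -0.25. In the stress-linked list of miR-34, miR-146, miR-155 and miR-21, 1 of 11 was higher, with a median of 0.09.

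The counts of the other lists are read against the 11.9% of all tested entries past the threshold. Of 11 tested arms of the miR-23, miR-27 and miR-24 clusters, 1 was lower past the threshold and 0 were higher (median -1.01). The 10 tested members of the miR-30 family, the 8 of miR-26 and miR-29, the 8 of miR-15 and miR-16 and the 9 of the miR-322 to miR-503 cluster had 0 calls in edgeR, with list medians between -0.29 and 0. miR-200 and miR-141, epithelial miRNAs, were at 0 in VE and summed to at most 16.1 CPM in a DFO library. Of 38 tested miRNAs of the imprinted Dlk1-Dio3 cluster, 3 were higher, each at 0 in VE and resting on 1 or a pair of DFO libraries (miR-323-5p, miR-411-3p and miR-667-3p), while the median was -0.22. Of 180 tested entries with a number above 1000, mostly late-found and rare miRNAs, 12 were higher and 5 lower. The median was 0 over the 180 and 1.61 over those of them with counts in DFO or VE, against 0.18 over all entries with counts. In the granulosa-linked list, 1 of 19 was higher (miR-378a-3p) and 2 were lower (miR-375-3p and miR-378a-5p). The 2 arms of miR-378a, both rare, had opposite signs.

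The direction between VE and DFO was also set beside that between FAC and CON. The difference of FAC and CON shares no library with that of VE and DFO. VE minus DFO had the sign of FAC minus CON in 16 of the 21 abundant entries past the threshold, and in 86 of all 124 abundant entries. Over the 65 entries it did in 36 (55.4%), and over all tested entries with a direction in both in 242 (57.1%). The share among the 65 was no larger than among all entries, and whether that among the 21 differed from that among the 124 was not tested. By level, let-7b-5p was at 19158 ± 12444 CPM in FAC and 65587 ± 18462 CPM in CON (SD, n = 3), with VE close to FAC and DFO close to CON. miR-99a-5p was at 149328 ± 31584 CPM in FAC and 73734 ± 13799 CPM in CON (SD, n = 3), again with VE nearer to FAC. Other entries differed. For miR-148a-3p, VE (80777 ± 15431 CPM) was near CON (88295 ± 11199 CPM), FAC was at 135146 ± 72674 CPM and DFO (32552 ± 11733 CPM) was below all (SD, n = 3). For miR-125a-5p, VE (4868 ± 163.9 CPM) was near CON (5467 ± 440.9 CPM), while DFO (17052 ± 9221 CPM) was above CON and FAC (3000 ± 1996 CPM, SD, n = 3). let-7a-5p was at 5117 ± 3150 CPM in VE and 5189 ± 580.3 CPM in CON (SD, n = 3). For miR-486, in contrast, the mean of VE was above both, since FAC was at 42128 ± 55754 CPM and CON at 44909 ± 18209 CPM (SD, n = 3). The FAC and VE libraries overlapped in miR-486, since FAC replicate 3 lay above VE replicate 2. miR-669c-5p in DFO was above both CON (453.3 ± 138.2 CPM) and FAC (216.9 ± 49.6 CPM, SD, n = 3).

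**Figure D5:**
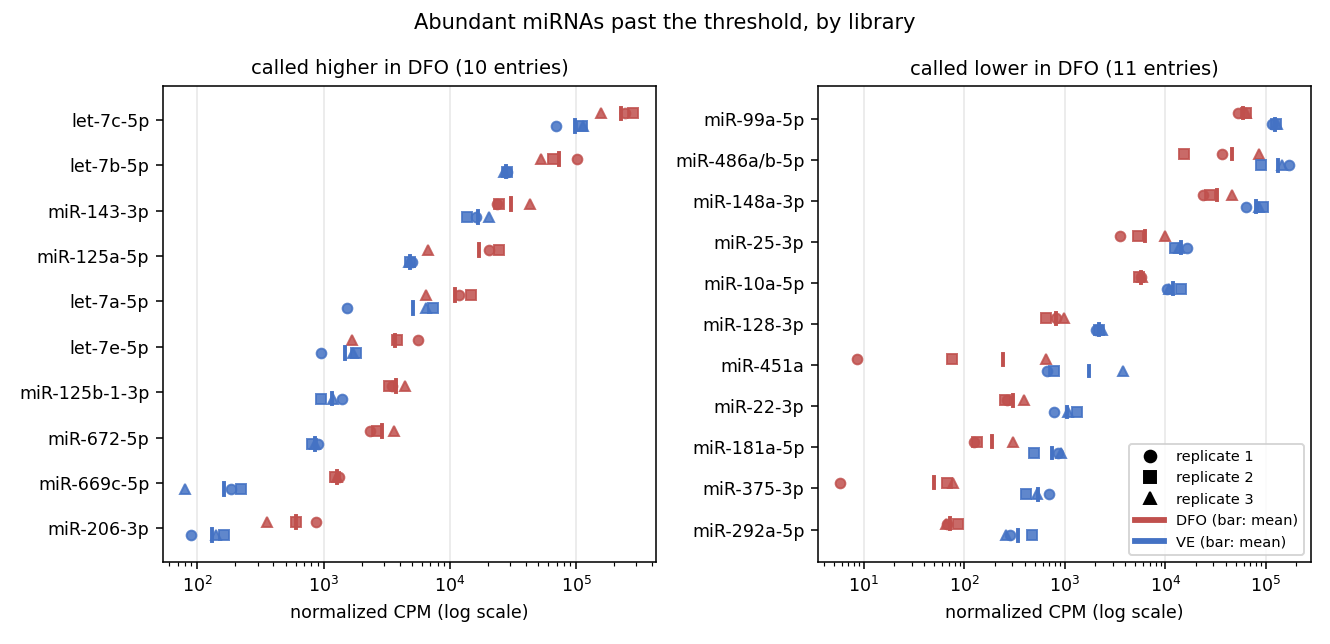
Points give the normalized CPM of each DFO and VE library on a log scale for the 21 entries past the threshold with a mean of at least 100 CPM, and bars the group means. The groups overlap for let-7a-5p and let-7e-5p and for no other of the 21.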

How the data were processed

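Small RNA of exosomes was sequenced in 12 libraries by the study, and groups were taken from the treatment labels. The authors deposited raw counts for 637 miRNA entries, 5 of them joining 2 miRNAs, and the same values as RPM. Each count divided by its RPM gave the library total, 24209533 to 24826306 reads in DFO and VE. The submitters' processing notes name mm9. The aligner and the miRNA database are not given in the sources used here. The deposited values hold no positions, and coordinates are those of RefSeq in GRCm38.p6.

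A summed count of 10 or more in the series was required of an entry, and these were compared with edgeR 4.0.16 (R 4.3.3, TMM factors, quasi-likelihood test, group as the only term). All 4 groups were in 1 fit, with a common biological coefficient of variation of 1.57, and the contrast was DFO minus VE. The threshold was that of the study, a fold of at least 1.5 and p under 0.05, taken as unadjusted. Seed groups were tested on counts summed over entries with the same bases 2 to 8, with the 74 tested entries without a sequence kept as single rows. The procedure was run on simulated counts with known changes. A minimum recovery was required only at a spread lower than that of these libraries, so passing it does not show the recovery at their own spread. DESeq2 1.42.0, limma 3.58.1 on log2(RPM + 1), other scalings and filters, thinned counts and fits without each library were the alternatives. Named entries were those with an adjusted p under 0.05, the 8 with the smallest p in each direction among entries whose groups do not overlap (mean of at least 20 CPM in the higher group), the 8 most abundant, their arms and seed relatives, and list members past the threshold. The comparison, the lists and the rules were chosen with earlier results of these data known.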

Additional observations from a re-analysis of the deposited data

How the results depend on the processing

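The number of entries past the threshold stayed within 1.5 times of 65 under most alternatives. It was 20 when at least 10 counts were required in each of the 6 libraries, 38 with the replicate number as a block, 39 with limma on log2(RPM + 0.1), 36 with all libraries thinned to 452021 counts, and 41 to 59 without each library in turn. The number with an adjusted p under 0.05 was 8. It was 0 with library read totals (edgeR, 53 at an unadjusted p under 0.05), 0 with limma on log2(RPM + 1) (46 at an unadjusted p under 0.05), 1 with limma on log2(RPM + 0.1), 1 with edgeR's filterByExpr, 3 with at least 10 counts in each library, 16 with edgeR on the 6 libraries alone, 33 with DESeq2 on 12 libraries, 39 with DESeq2 on 6 libraries, and 1 to 9 without each library in turn. The cause of this range was not tested, except that the filters leave fewer entries. The number of seed groups past the threshold, 54, was 35 with the 6 libraries alone, 24 with the replicate block and 32 to 48 without each library. Among the 60 named entries, whose direction was followed, the values of 2 changed sign: miR-423-5p without DFO replicate 2 (0.040, with a range of -0.65 to 0.040 over the fits without a library) and miR-3099-3p without VE replicate 3 (2.92, range -8.49 to 2.92). The differences in miRNA share, in entries detected and in the share of the 10 most abundant entries moved by less than 1 SD under each alternative run.

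Same-numbered DFO and VE libraries did not deviate together (r of -0.01, 0.01 and 0.03 over entries), so the replicate numbers were not taken to pair them. With 3 libraries a group, the exact permutation test could not go below 0.1. Depth limited the rare entries, for which a level under the floor of 0.538 to 2.25 CPM was not detectable.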
